A study of Mus musculus with 16 samples.

Results

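Genes of the antioxidant programme run by the transcription factor NRF2 and of the glutathione transferase families were followed in mouse hearts after doxorubicin, with and without nicotinamide mononucleotide (NMN). The 36 genes were taken by symbol from a count table of 30884 genes. They comprise 14 antioxidant and NADPH genes that textbooks list as NRF2 targets, and 22 transferases that include the alpha, mu, pi, omega, theta, kappa and zeta classes and the microsomal family. All 36 were found in the table, and 33 passed the expression filter and were tested. NRF2 binding was not measured, so the name describes what the genes are known for.

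Hearts came from wild-type male C57BL/6 mice aged 8 weeks, in 4 groups of 4 libraries. DOX_NMN mice received NMN at 500 mg/kg and then doxorubicin at 15 mg/kg, and DOX_Vehicle mice received saline and then doxorubicin at the same dose. Sham_NMN mice received NMN at 500 mg/kg and then saline, and Sham_Vehicle mice received saline at both times. The first injection preceded the second by 30 min, all were intraperitoneal and single, and hearts were taken at day 5. Doxorubicin is an anthracycline cancer drug with known cardiac toxicity, and NMN is a precursor of NAD+. The labels number the replicates without saying which animal each came from, so the p-values below speak only of how much these libraries varied.

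Under resting conditions the adaptor KEAP1 holds NRF2 in the cytoplasm and marks it for degradation. Oxidants and electrophiles modify KEAP1, NRF2 then enters the nucleus, pairs with a small MAF protein and binds antioxidant response elements in front of genes for glutathione synthesis, thioredoxin recycling, NADPH supply and detoxification. Glutathione transferases join glutathione to electrophiles such as products of lipid peroxidation, and in the heart doxorubicin is known for redox cycling and lipid peroxidation.

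The promoter sequences that hold the core of that element are shown because genes of this class are known through it, so its share among them is a description and not independent of how such genes came to be listed. The core was searched as TGACNNNGC on both strands in RefSeq promoter windows of 300 bases, 250 before and 50 after each start, in GRCm38.p6. Of the 36 genes, 32 were matched in that table, and Gclc, Gsr, Gsta4 and Gstt2 were not. The core lay in a window of 11 of the 32, or 34.4%, against 14% of the 27025 genes in the table. In the 29 bases printed per site, 5′ to 3′ on the strand of the gene, capitals mark the core, which reads as its reverse complement where it lies on the other strand.
Gclm: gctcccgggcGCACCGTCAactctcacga
Txnrd1: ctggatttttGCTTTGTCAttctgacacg
Srxn1: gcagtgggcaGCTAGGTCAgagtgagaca
Prdx1: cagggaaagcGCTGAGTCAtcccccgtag
G6pdx: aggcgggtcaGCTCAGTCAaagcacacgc
Pgd: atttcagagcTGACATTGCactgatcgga
Me1: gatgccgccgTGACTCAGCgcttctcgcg
Gsta3: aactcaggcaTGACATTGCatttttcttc
Gstm5: caccgcccacTGACCACGCggagggcggg
Gstm7: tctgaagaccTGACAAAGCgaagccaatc
Mgst1: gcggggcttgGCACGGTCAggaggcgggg

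The sites of Gclm (chr3:122245413-122245441, plus strand), Prdx1 (chr4:116685456-116685484, plus strand) and Gsta3 (chr1:21240454-21240482, plus strand) lay outside the annotated gene body in GENCODE M21, and that of Txnrd1 (chr10:82859104-82859132, plus strand) lay in an intron. Those of Srxn1 (chr2:152105542-152105570, plus strand), G6pdx (chrX:74428919-74428947, minus strand), Me1 (chr9:86695902-86695930, minus strand), Gstm5 (chr3:107895802-107895830, plus strand), Gstm7 (chr3:107931725-107931753, minus strand) and Mgst1 (chr6:138140461-138140489, plus strand) touched an exon with UTR bases of at least 1 transcript. The site of Pgd (chr4:149166061-149166089, minus strand) touched an exon without UTR bases. The cores of Prdx1 and Me1 also hold TGACTCA, the letters of an AP-1 site. Among the 29 genes that were both matched and tested, the 11 with the core included 8 that were higher in DOX_Vehicle than in Sham_Vehicle and 3 that were not called, and the 18 without it included 10 that were higher, 3 that were lower and 5 that were not called. Of all genes tested, 24.8% were higher and 23.9% were lower in that comparison. The difference between genes with and without the core was not tested. A match is a run of letters and not a measured binding site, and a gene without a match may hold the core outside the windows searched.

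Libraries held 13.9 to 16.4 M counts, so 3 counts stood for 0.183 to 0.215 CPM, that is counts per M counts of the scaled library. A gene was called at a Benjamini-Hochberg adjusted p under 0.05 in edgeR's quasi-likelihood test over 14716 genes. The mean level of Scand1, Cox11 and Mrps34, known from earlier results of these data, separated 6 libraries from the other 10 by a gap of 1.38 in log2 CPM. The 6 were replicates 3 and 4 of DOX_Vehicle and of Sham_Vehicle and replicate 4 of DOX_NMN and of Sham_NMN. They are called the second part here and the other 10 the first part. DOX_Vehicle replicate 3 lay in between, at 1.377, with the rest of the second part at 0.4144 to 0.6865 and the lowest first-part library at 2.753. The labels name no batch, and folds within the parts are given for the genes the results turn on. For DOX_NMN and Sham_NMN the second part holds 1 library each, so a fold there compares single libraries of these groups. Over all genes DOX_NMN replicate 1 was farthest from the rest of its group (chi-square per gene of 40, 50.6 and 30.2 against replicates 2, 3 and 4), and replicate 3, which was closest to replicate 2 (6.44), was singled out by its red cell markers given below. Between all pairs of libraries of a group, counts differed by more than sampling noise.

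Doxorubicin alone raised most of the tested genes. In DOX_Vehicle against Sham_Vehicle, 21 of the 33 tested genes rose, 3 fell and 9 were not called, while over all 14716 genes 24.8% rose and 23.9% fell. The median log2 fold of the 33 was 0.60, beside 0.01 over all genes. In 19 of the 33 every DOX_Vehicle library lay above every Sham_Vehicle library, and in 3 every one lay below, beside 19.7% and 19.9% of all genes. The largest folds belonged to Gsta1, Srxn1, Gsta2, Gclm, Nqo1, Mgst1 and Txnrd1. In bulk tissue, fewer cells of a type and less RNA per cell cannot be told apart. Of the 33, Gsta2 reached the filter's level in DOX_Vehicle and in 1 other library only, so its presence among the tested genes already required a high level after doxorubicin.

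**Figure D1:**
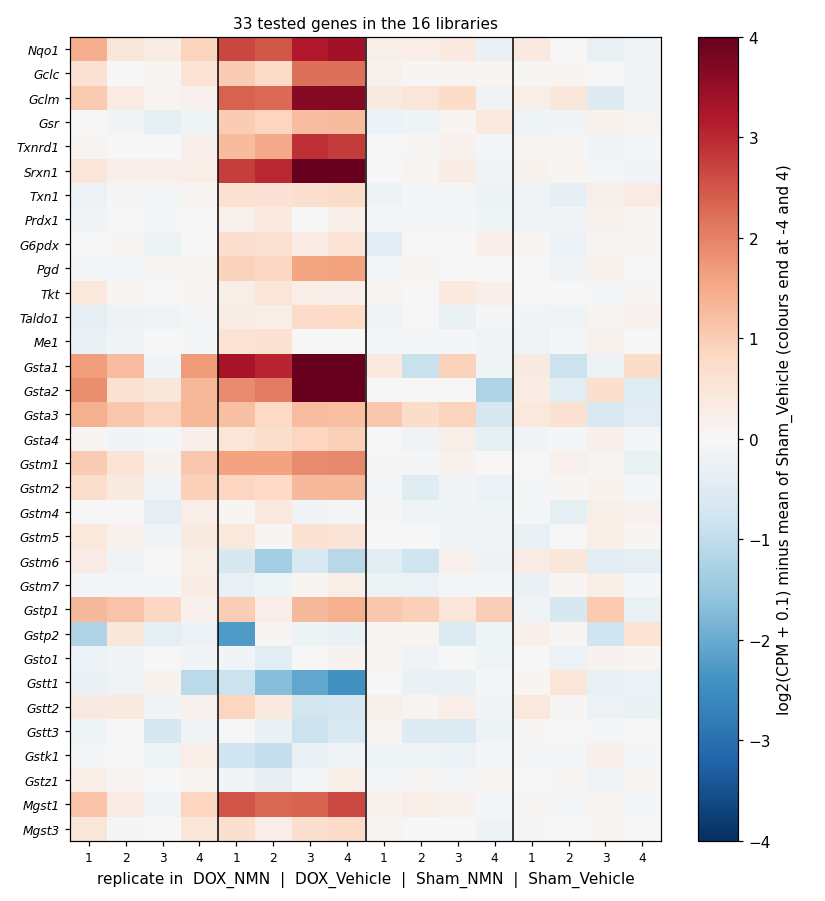
Level of the 33 tested genes (rows, in order of role) in the 16 libraries (columns, replicates 1 to 4 of DOX_NMN, DOX_Vehicle, Sham_NMN and Sham_Vehicle), as log2(CPM + 0.1) minus the mean of the Sham_Vehicle libraries, with colours ending at -4 and 4. The DOX_Vehicle block is reddest for the genes with the largest rises and near white for small rises such as those of Tkt and Gstm5. Its replicates 3 and 4 are darker than replicates 1 and 2 for Srxn1, Gclm, Txnrd1 and Gsta1.

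Nqo1 encodes the quinone reductase NQO1, the textbook reporter of NRF2 activity, which reduces quinones by a pair of electrons. Its level was 123, 62.5, 55.4 and 82.8 CPM in DOX_NMN replicates 1 to 4, 288, 252, 409 and 462 CPM in DOX_Vehicle, 52.3, 53.8, 58.2 and 37.2 CPM in Sham_NMN, and 58.9, 45.7, 36.2 and 41.1 CPM in Sham_Vehicle. The DOX_Vehicle libraries lay above all others, and DOX_NMN replicates 1, 2 and 4 lay between them and the sham libraries. The log2 fold of DOX_Vehicle over Sham_Vehicle was 2.95 (SE 0.26, adjusted p = 8.2e-07), and that of DOX_NMN over DOX_Vehicle was -2.12 (SE 0.25, adjusted p = 2.8e-05). Within the first part the doxorubicin log2 fold of Nqo1 was 2.37, and within the second 3.48.

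All 3 tested genes for making and reducing glutathione rose. Gclc and Gclm encode the catalytic and modifier subunits of glutamate-cysteine ligase, the rate-limiting enzyme of glutathione synthesis, and Gsr encodes glutathione reductase. Gclm had 43.0, 26.0, 22.7 and 23.6 CPM in DOX_NMN, 107, 99.5, 263 and 269 CPM in DOX_Vehicle, 26.9, 29.3, 35.0 and 18.9 CPM in Sham_NMN, and 24.6, 28.6, 14.4 and 18.5 CPM in Sham_Vehicle. Its lowest DOX_Vehicle library was above every library of the other groups. Gclm rose by a log2 fold of 3.10 (SE 0.35, adjusted p = 7.3e-06) in DOX_Vehicle against Sham_Vehicle. Gclc had 20.8, 14.1, 14.7 and 20.5 CPM in DOX_NMN, 28.0, 23.7, 63.8 and 64.2 CPM in DOX_Vehicle, 15.8, 14.3, 15.0 and 14.8 CPM in Sham_NMN, and 14.5, 14.7, 13.9 and 12.7 CPM in Sham_Vehicle. The groups DOX_Vehicle and Sham_Vehicle did not overlap for Gclc either, and its log2 fold was 1.69 (SE 0.26, adjusted p = 1e-04).

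For both ligase subunits the rise was larger in the second part of the libraries than in the first. The log2 fold of Gclc was 0.82 in the first part and 2.26 in the second, and that of Gclm was 1.96 in the first and 4.0 in the second. Gsr gave a different picture, with 1.09 in the first part and 1.10 in the second. Gsr levels were 42.1, 37.6, 48.5 and 49.6 CPM in DOX_Vehicle against 18.5, 19.1, 23.0 and 22.4 CPM in Sham_Vehicle, a log2 fold of 1.10 (SE 0.14, adjusted p = 2e-05). Slc7a11 encodes the cystine-glutamate exchanger xCT, which brings in the cysteine for glutathione. It did not pass the filter and had 0, 0, 1 and 1 counts in DOX_NMN, 1, 4, 28 and 31 counts in DOX_Vehicle, 2, 1, 2 and 1 counts in Sham_NMN, and 2, 3, 0 and 0 counts in Sham_Vehicle. Only DOX_Vehicle replicates 3 and 4 of the 16 libraries held more than 4 counts of it.

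Of the thioredoxin and peroxiredoxin genes, 3 rose and 1 was not called. Srxn1 encodes sulfiredoxin, which repairs overoxidised peroxiredoxins. Srxn1 had 25.3, 20.8, 20.4 and 21.3 CPM in DOX_NMN, 123, 146, 883 and 783 CPM in DOX_Vehicle, 18.2, 19.3, 22.1 and 16.3 CPM in Sham_NMN, and 19.8, 19.0, 16.9 and 16.1 CPM in Sham_Vehicle. All DOX_Vehicle libraries lay far above the rest, and replicates 3 and 4 lay above replicates 1 and 2. The log2 fold of Srxn1 was 4.75 (SE 0.52, adjusted p = 5.9e-06), with 2.79 in the first part and 5.64 in the second. Per length, Srxn1 averaged 164 ± 133 FPKM in DOX_Vehicle (SD, n = 4), the fourth highest of the 36 genes there.

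Txnrd1 encodes cytosolic thioredoxin reductase. It had 61.9, 58.3, 57.5 and 67.4 CPM in DOX_NMN, 139, 165, 442 and 404 CPM in DOX_Vehicle, 58.6, 59.5, 65.1 and 55.5 CPM in Sham_NMN, and 63.1, 59.5, 53.5 and 56.0 CPM in Sham_Vehicle. The DOX_NMN and sham libraries lay in 1 narrow band with DOX_Vehicle above it. Its doxorubicin log2 fold was 2.31 (SE 0.28, adjusted p = 1.3e-05), with 1.31 in the first part and 2.94 in the second. Txn1, the thioredoxin that Txnrd1 reduces, had 61.8, 60.9, 62.9 and 67.7 CPM in DOX_Vehicle against 35.8, 32.1, 46.7 and 50.6 CPM in Sham_Vehicle, a log2 fold of 0.62 (SE 0.12, adjusted p = 7e-04), with 0.85 in the first part and 0.41 in the second. Prdx1, an abundant peroxidase, had 231, 266, 204 and 237 CPM in DOX_Vehicle against 189, 191, 223 and 215 CPM in Sham_Vehicle. These ranges overlapped and Prdx1 was not called (log2 fold 0.20, adjusted p = 0.075). It was called within the first part, at 0.39 (adjusted p = 0.012), without DOX_Vehicle replicate 3, at 0.26 (adjusted p = 0.027), and with DESeq2, at 0.20 (adjusted p = 0.047).

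**Figure D2:**
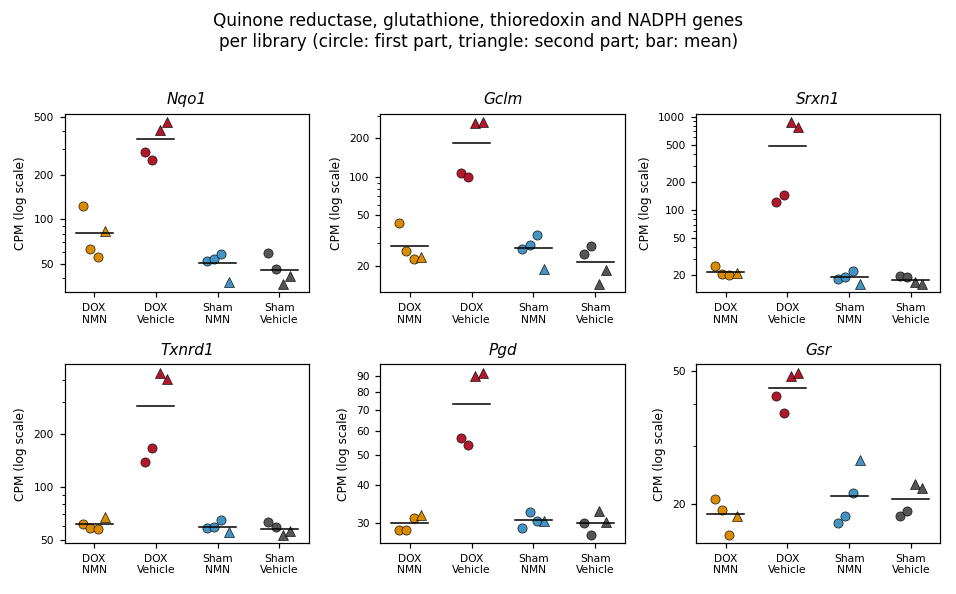
CPM on a log axis for 6 genes in each library, by group from DOX_NMN on the left to Sham_Vehicle on the right, with circles for the first part of the libraries, triangles for the second and a bar at the mean of 4. In Srxn1, Txnrd1, Gclm and Pgd the DOX_Vehicle triangles lie above the DOX_Vehicle circles, and both lie above the other 3 groups.

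Among the genes that supply NADPH, 4 rose and 1 was not called. Pgd encodes 6-phosphogluconate dehydrogenase, an NADPH-forming step of the pentose phosphate pathway. Pgd had 28.5, 28.6, 31.1 and 31.9 CPM in DOX_NMN, 56.7, 54.0, 90.3 and 92.6 CPM in DOX_Vehicle, 28.9, 32.6, 30.5 and 30.6 CPM in Sham_NMN, and 30.0, 27.5, 33 and 30.2 CPM in Sham_Vehicle. Every DOX_Vehicle library was above every library of the other groups, and the log2 fold was 1.28 (SE 0.15, adjusted p = 1e-05), with 0.95 in the first part and 1.52 in the second. G6pdx, the entry enzyme of the pathway, had 8.89, 8.47, 7.01 and 8.21 CPM in DOX_Vehicle against 5.87, 4.73, 5.94 and 5.75 CPM in Sham_Vehicle, and rose by a log2 fold of 0.55 (SE 0.15, adjusted p = 0.006). Taldo1, transaldolase of the same pathway, had 92.6, 91.0, 128 and 132 CPM in DOX_Vehicle against 70.2, 66.3, 81.3 and 84.4 CPM in Sham_Vehicle, and rose by 0.55 on the log2 scale (SE 0.13, adjusted p = 0.0023). For these genes too the groups did not overlap. Taldo1 was at 0.43 in the first part and 0.64 in the second. G6pdx was at 0.71 in the first part and at 0.37, not called, in the second (adjusted p = 0.098).

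The other NADPH genes lay near the threshold. Tkt, transketolase, had 24.3, 28.9, 24.8 and 23.5 CPM in DOX_Vehicle against 20.9, 20.2, 19.5 and 21.4 CPM in Sham_Vehicle, a log2 fold of 0.31 (SE 0.11, adjusted p = 0.03). Its call was lost without DOX_Vehicle replicate 2 (adjusted p = 0.088) and without Sham_Vehicle replicate 1, 2 or 3 (0.051, 0.061 and 0.076), and its folds of 0.37 in the first part and 0.23 in the second were not called. Me1, the cytosolic malic enzyme, had 196, 205, 134 and 136 CPM in DOX_Vehicle against 122, 129, 153 and 136 CPM in Sham_Vehicle. Replicates 1 and 2 of DOX_Vehicle were high and replicates 3 and 4 lay among the sham libraries, and the pooled log2 fold of 0.31 was not called (SE 0.13, adjusted p = 0.052). Within the first part Me1 was at 0.67 and called (adjusted p = 0.00068), and within the second it was at -0.11 (adjusted p = 0.32). It was also called without Sham_Vehicle replicate 3 (adjusted p = 0.038), without DOX_Vehicle replicate 3 (0.016) and without DOX_Vehicle replicate 4 (0.018), as it was with RLE scaling (0.048), with a filter of 1 CPM (0.049) and with DESeq2 (0.041). Of the 50-base windows of Me1 transcripts, 22.9% were shared with other annotated genes, 21.1% with the pseudogene Gm7049, so its counts are less certain.

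All 4 alpha transferases rose. Gsta1 and Gsta2 had the largest and the third largest log2 folds of the 33 genes. Gsta1, Gsta2 and Gsta4 lie together at GRCm38 chr9:78182774-78355788. Gsta1 had 2.02, 1.44, 0.505 and 2.05 CPM in DOX_NMN, 6.36, 5.32, 43.6 and 51.0 CPM in DOX_Vehicle, 0.773, 0.259, 1.14 and 0.482 CPM in Sham_NMN, and 0.741, 0.267, 0.457 and 1.0 CPM in Sham_Vehicle. Its sham level was low, and DOX_Vehicle replicates 3 and 4 stood well above replicates 1 and 2. The log2 fold was 5.40 (SE 0.75, adjusted p = 4.3e-05), with 3.49 in the first part and 5.98 in the second. Gsta2 had 11, 4, 3 and 7 counts in DOX_NMN, 12, 14, 87 and 75 counts in DOX_Vehicle, 2, 2, 2 and 0 counts in Sham_NMN, and 3, 1, 4 and 1 counts in Sham_Vehicle. Most sham libraries were thus at or under 3 counts, and the log2 fold of 4.33 (SE 0.75, adjusted p = 0.00023) depends on that floor, as do the 2.57 of the first part and the 4.97 of the second. In 50-base windows, 90.5% of Gsta1 was shared with other genes, 75.7% with Gm3776, and 49.8% of Gsta2 was shared, 36% with Gsta1. The counts of these genes may therefore hold reads of each other or lack reads that match several genes.

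The other alpha genes had a higher sham level and smaller changes. Gsta4, whose enzyme is known for conjugating 4-hydroxynonenal, a product of lipid peroxidation, had 82.9, 96.7, 108 and 114 CPM in DOX_Vehicle against 54.7, 57.1, 67.8 and 56.7 CPM in Sham_Vehicle. The groups did not overlap and the log2 fold was 0.76 (SE 0.13, adjusted p = 2e-04), with 0.68 in the first part and 0.82 in the second. Gsta3 had 22.1, 17.7, 15.2 and 20.6 CPM in DOX_NMN, 19.1, 14.2, 19.3 and 18.9 CPM in DOX_Vehicle, 17.6, 13.6, 15.3 and 5.16 CPM in Sham_NMN, and 10.9, 12.6, 5.35 and 6.12 CPM in Sham_Vehicle. The 3 lowest values of Gsta3 were the 3 sham libraries of the second part, whereas DOX_Vehicle replicates 1, 3 and 4 were at 18.9 to 19.3 CPM and replicate 2 at 14.2 CPM. Its log2 fold was 1.03 (SE 0.31, adjusted p = 0.011), at 0.50 and not called in the first part (adjusted p = 0.086) and 1.72 in the second (adjusted p = 1.7e-06).

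Of the mu transferases, which lie in a cluster at chr3:107895821-108044894, 3 rose, 1 fell, 2 were not called and Gstm3, with 0 or 1 count in every library, was not tested. Gstm1 had 350, 248, 187 and 363 CPM in DOX_NMN, 525, 524, 635 and 643 CPM in DOX_Vehicle, 177, 163, 191 and 172 CPM in Sham_NMN, and 169, 194, 184 and 143 CPM in Sham_Vehicle. The DOX_Vehicle libraries were highest, and 3 of the DOX_NMN libraries lay between them and every sham library. The log2 fold was 1.75 (SE 0.17, adjusted p = 2.2e-06), with 1.53 in the first part and 1.95 in the second. Gstm1 averaged 392 ± 20.4 FPKM in DOX_Vehicle and 116 ± 14.8 FPKM in Sham_Vehicle (SD, n = 4 each), the highest of the 36 genes in DOX_Vehicle and the second, after Mgst3, in Sham_Vehicle. Of its windows, 18.9% were shared, mostly with the pseudogene Gstm2-ps1.

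Gstm2 rose by a log2 fold of 1.08 (SE 0.18, adjusted p = 0.00021), with 115, 111, 158 and 156 CPM in DOX_Vehicle against 60.0, 65.6, 70.1 and 60.5 CPM in Sham_Vehicle. Its fold was 0.85 in the first part and 1.25 in the second. Gstm5 had 20.7, 15.8, 23.5 and 21.9 CPM in DOX_Vehicle against 12.5, 15.5, 18.5 and 15.9 CPM in Sham_Vehicle, and these ranges overlapped. Its log2 fold of 0.39 (SE 0.15, adjusted p = 0.038) was no longer called without any 1 of DOX_Vehicle replicates 1, 3 and 4 (adjusted p = 0.06, 0.11 and 0.087) or of Sham_Vehicle replicates 1, 2 and 4 (0.12, 0.068 and 0.065), under upper-quartile scaling (0.078) and with a replicate block (0.056). Within the parts Gstm5 was at 0.38, not called, in the first (adjusted p = 0.17) and at 0.39 in the second (0.021). Gstm6 went the other way, with 0.945, 0.544, 0.983 and 0.657 CPM in DOX_Vehicle against 1.98, 2.13, 1.11 and 1.19 CPM in Sham_Vehicle. Its DOX_Vehicle libraries were all below the lowest Sham_Vehicle library, and the log2 fold was -1.03 (SE 0.31, adjusted p = 0.011). Gstm6 was at -1.46 in the first part and at -0.49, not called, in the second (adjusted p = 0.36). Gstm4, at 7.73 to 13.0 CPM over the 16 libraries, and Gstm7, at 28.8 to 44.2 CPM, had log2 folds of 0.05 and -0.04 (adjusted p = 0.80 and 0.82).

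The pi genes share much sequence, with 33.7% of the windows of Gstp1 and 54.3% of those of Gstp2 found in another gene, mostly each in the other. Gstp1 had 59.8, 53.8, 42.9 and 27.0 CPM in DOX_NMN, 47.6, 28.8, 58.9 and 65.3 CPM in DOX_Vehicle, 50.8, 47.3, 33.5 and 48.4 CPM in Sham_NMN, and 22.0, 15.5, 50.1 and 19.9 CPM in Sham_Vehicle. All groups overlapped, and Sham_Vehicle replicate 3 was higher than the other 3 of its group. The doxorubicin log2 fold of 0.90 (SE 0.33, adjusted p = 0.033) was no longer called without DOX_Vehicle replicate 3 or 4 (adjusted p = 0.079 and 0.098) or without Sham_Vehicle replicate 1, 2 or 4 (0.085, 0.098 and 0.093), and it was called at 1.02 in the first part and 0.82 in the second. Gstp2, at 0.504 to 4.12 CPM over the 16 libraries, was at -0.54 and not called (adjusted p = 0.30).

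Of the omega, theta, kappa and zeta transferases none rose, 2 fell and 4 were not called. Gstt1, a theta enzyme that acts on small halogenated compounds, had 11.8, 12.9, 15.7 and 6.69 CPM in DOX_NMN, 7.88, 4.35, 3.28 and 2.56 CPM in DOX_Vehicle, 14.0, 11.8, 11.8 and 13.4 CPM in Sham_NMN, and 14.9, 19.9, 11.5 and 12.1 CPM in Sham_Vehicle. DOX_Vehicle lay below both sham groups, and DOX_NMN replicate 4 was the only DOX_NMN library inside the DOX_Vehicle range. The log2 fold of Gstt1 was -1.69 (SE 0.30, adjusted p = 0.00029), with -1.51 in the first part and -2.02 in the second. Gstk1, the kappa enzyme of mitochondria and peroxisomes, had 37.1, 33.9, 52.2 and 57.7 CPM in DOX_Vehicle against 62.0, 60.7, 73.5 and 61.5 CPM in Sham_Vehicle, and fell by a log2 fold of -0.51 (SE 0.15, adjusted p = 0.0088). The groups of Gstk1 did not overlap, and both parts showed the fall, at -0.79 and -0.31. Gsto1, Gstt3, Gstz1 and Gstt2 were at log2 folds of -0.08, -0.41, -0.05 and 0.10, with adjusted p from 0.17 to 0.79. Over the 16 libraries Gsto1 lay at 86.6 to 128 CPM, Gstz1 at 21.9 to 33.1 CPM, Gstt2 at 5.37 to 16.3 CPM and Gstt3 at 1.05 to 2.13 CPM. Gstz1 encodes the zeta enzyme of tyrosine breakdown, maleylacetoacetate isomerase, and Gsto1 an omega enzyme with reductase activity.

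Both tested microsomal genes rose. Mgst1, a membrane enzyme of the endoplasmic reticulum and outer mitochondrial membrane with glutathione transferase and peroxidase activity, had 67.2, 37.8, 28.2 and 54.6 CPM in DOX_NMN, 173, 149, 156 and 191 CPM in DOX_Vehicle, 33.1, 36.1, 34.5 and 29.1 CPM in Sham_NMN, and 31.3, 28.5, 31.9 and 29.6 CPM in Sham_Vehicle. Its DOX_Vehicle libraries were close together and far above the sham libraries, and its log2 fold of 2.46 had the smallest adjusted p of the 33 genes (SE 0.20, adjusted p = 4.2e-07). Unlike Srxn1 and Gclm, Mgst1 gave like folds in both parts, at 2.42 and 2.49. Mgst3 had 340, 255, 333 and 359 CPM in DOX_Vehicle against 200, 214, 223 and 215 CPM in Sham_Vehicle, and rose by a log2 fold of 0.60 (SE 0.13, adjusted p = 0.0016), with 0.52 in the first part and 0.65 in the second. Mgst2 had 0 to 10 counts per library and was not tested. Summed over all 22 transferases, the level was 892 to 1270 CPM in DOX_NMN, 1410 to 1910 CPM in DOX_Vehicle, 816 to 925 CPM in Sham_NMN and 834 to 953 CPM in Sham_Vehicle.

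**Figure D3:**
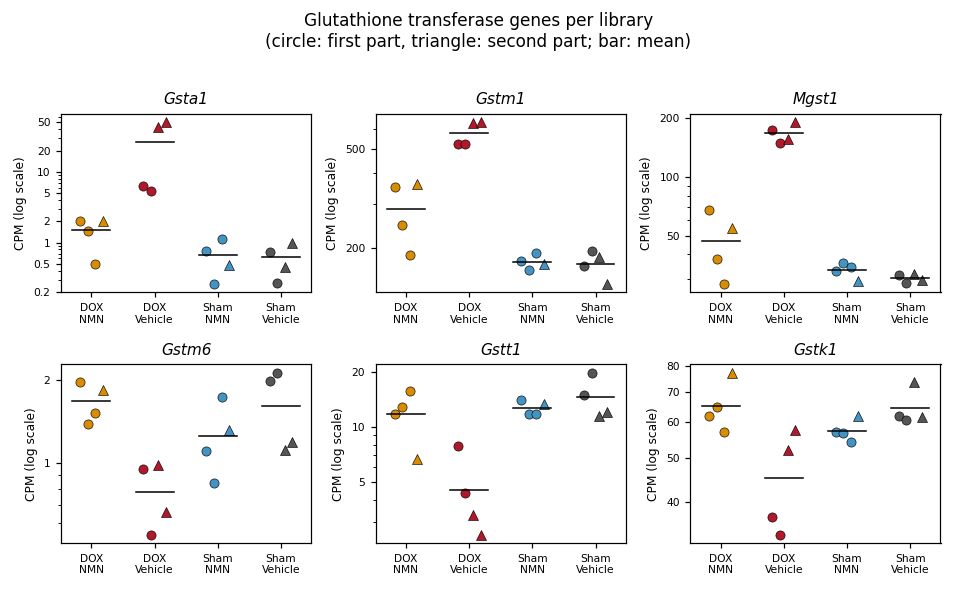
CPM on a log axis for 6 transferase genes in each library, by group from DOX_NMN on the left to Sham_Vehicle on the right, with circles for the first part of the libraries, triangles for the second and a bar at the mean of 4. Gsta1, Gstm1 and Mgst1 are highest in DOX_Vehicle, and Gstm6, Gstt1 and Gstk1 are lowest there.

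The DOX_Vehicle libraries fell into 2 pairs. In 20 of the 33 genes replicates 3 and 4 both lay above replicates 1 and 2, and in 6 both lay below, beside 34.3% and 33.7% of all genes. Those below were G6pdx, Me1, Gstm4, Gstt1, Gstt2 and Gstt3. Fitted within the first part of the libraries, doxorubicin gave calls for 23 of the 33 genes, 20 higher and 3 lower, beside 13.6% and 13.9% of the genes tested there. Within the second part 34 of the 36 passed the filter and 23 were called, 20 higher and 3 lower, beside 30.6% and 30.1%. Each of these fits had 2 libraries per group for DOX_Vehicle and Sham_Vehicle. The folds within the parts lay farthest apart for Srxn1, Gsta1, Gsta2, Gclm, Txnrd1 and Gclc. Gstt2 was at -0.47 in the second part (adjusted p = 0.032), against 0.39 in the first (adjusted p = 0.18) and 0.10 pooled. What separates the parts was not tested.

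**Figure D4:**
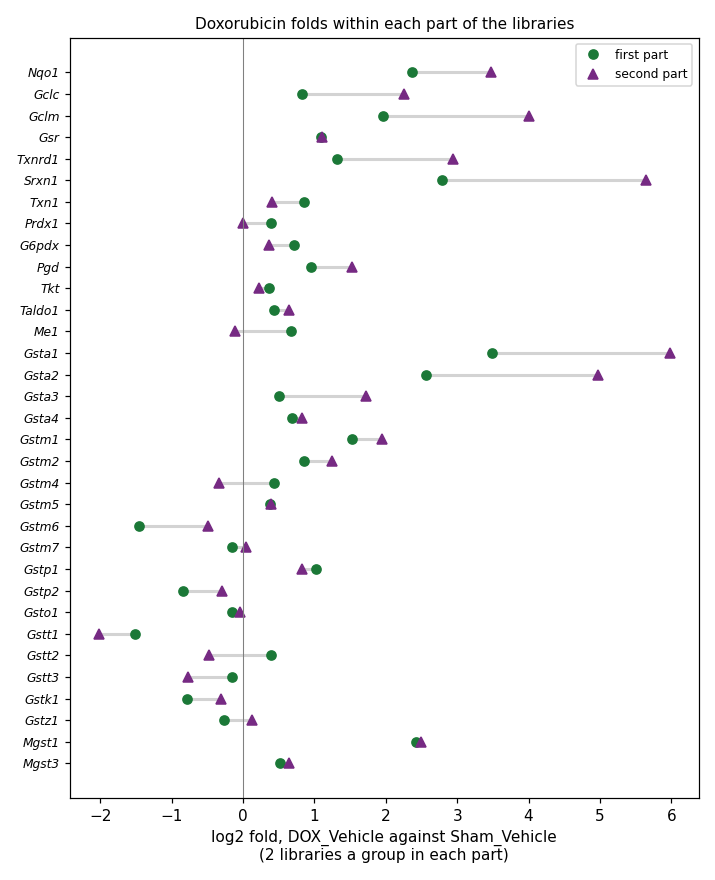
log2 fold of DOX_Vehicle over Sham_Vehicle for the 33 tested genes, fitted within the first part of the libraries (circles) and within the second (triangles), with 2 libraries a group in each. Srxn1 lies at 2.79 and 5.64 and Gclm at 1.96 and 4.0, while Mgst1 lies at 2.42 and 2.49 and Gsr at 1.09 and 1.10.

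Markers of several cell types moved with the groups. Over all genes 24.8% rose and 23.9% fell in DOX_Vehicle against Sham_Vehicle, and in DOX_NMN against DOX_Vehicle 17.5% rose and 18.8% fell. Of 8 cardiomyocyte markers 7 fell in DOX_Vehicle against Sham_Vehicle and 1 was not called, with a summed level of 34200 to 60400 CPM in DOX_NMN, 18500 to 27600 CPM in DOX_Vehicle, 57000 to 62700 CPM in Sham_NMN and 60100 to 68000 CPM in Sham_Vehicle. All 7 tested neutrophil markers of 8 rose, to a sum of 39.5 to 111 CPM in DOX_Vehicle, against 2.02 to 6.67 CPM in Sham_Vehicle, and that sum was 5.87 to 18.5 CPM in DOX_NMN and 0.773 to 8.37 CPM in Sham_NMN. All 5 tested red cell markers of 6 fell, to a sum of 0.378 to 2.56 CPM in DOX_Vehicle, against 340 to 572 CPM in Sham_Vehicle. In DOX_NMN replicate 3 red cell markers stood at 321 CPM, while the other 3 DOX_NMN libraries had 0.377 to 4.65 CPM. Of 8 fibroblast markers 5 fell and 1 rose in DOX_Vehicle against Sham_Vehicle, and 4 rose and 1 fell in DOX_NMN against DOX_Vehicle, with a sum of 837 to 1050 CPM in DOX_NMN, 783 to 1080 CPM in DOX_Vehicle, 900 to 1720 CPM in Sham_NMN and 945 to 1580 CPM in Sham_Vehicle. Of 7 tested smooth muscle and pericyte markers of 8, 4 fell in DOX_Vehicle and 2 rose in DOX_NMN against DOX_Vehicle, with 1200 to 1420, 790 to 1050, 1300 to 1640 and 1360 to 1580 CPM in DOX_NMN, DOX_Vehicle, Sham_NMN and Sham_Vehicle. Of 5 tested atrial markers of 6, 3 fell in DOX_Vehicle and 3 rose in DOX_NMN against DOX_Vehicle, with 32.2 to 288, 21.5 to 31.1, 82.4 to 178 and 21.4 to 237 CPM in the same order. After doxorubicin alone 2 of 8 endothelial markers rose, and 2 of 8 macrophage markers and 1 of 4 tested adipocyte markers fell. These counts were near the shares of all genes. The only tested B cell and T cell marker each fell. Several transferases are abundant in liver, where the defining marker Alb is high, and in these hearts Alb had 0 to 5 counts in every library. The hepatocyte list summed to 1.08 to 7.75 CPM in DOX_NMN, 1.27 to 3.4 CPM in DOX_Vehicle, 1.48 to 6.26 CPM in Sham_NMN and 0.457 to 4.33 CPM in Sham_Vehicle. Of its 2 tested markers of 6, Ttr rose in DOX_Vehicle against Sham_Vehicle and fell in DOX_NMN against DOX_Vehicle, and Cyp2e1 was not called. The part of these marker changes in the results was not tested.

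NMN given before doxorubicin left most of these genes lower than doxorubicin alone. In DOX_NMN against DOX_Vehicle, 17 of the 33 genes fell, 3 rose and 13 were not called, beside 18.8% of all genes that fell and 17.5% that rose. The median log2 fold of the 33 was -0.43, and that over all genes was 0.00. In 16 of the 33 every DOX_NMN library lay below every DOX_Vehicle library and in 1, Gstm6, every one lay above, beside 12.8% and 12.7% of all genes. This comparison and the previous one share the DOX_Vehicle libraries, so their folds are not independent and are given side by side only.

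Srxn1 had the lowest log2 fold, -4.46 (SE 0.51, adjusted p = 2.5e-05), followed by Gsta1 at -4.13 (SE 0.68, adjusted p = 0.00034), Gsta2 at -2.83 (adjusted p = 0.0033), Gclm at -2.68 (adjusted p = 4.8e-05) and Txnrd1 at -2.23 (adjusted p = 4.2e-05). Mgst1 was at -1.83 with the smallest adjusted p of the 33 (SE 0.19, adjusted p = 1e-05). Gclc, Pgd, Gsr and Gstm1 fell by log2 folds of -1.36, -1.29, -1.25 and -1.02, with adjusted p from 2.2e-05 to 0.001. In these 10 genes the highest DOX_NMN library lay below the lowest DOX_Vehicle library. Of them, Gsta2 reached the filter's level in DOX_Vehicle and in 1 other library only. Its lower level in DOX_NMN was therefore partly set by the filter. Taldo1, Gsta4, Txn1 and G6pdx fell by less, at -0.75, -0.74, -0.70 and -0.59. Within the first part, with 3 DOX_NMN and 2 DOX_Vehicle libraries, the folds were -2.60 for Srxn1, -2.12 for Gsta1, -1.75 for Gclm, -1.36 for Txnrd1, -0.65 for Gclc and -1.85 for Mgst1, and that of Gsta2, -0.98, was not called (adjusted p = 0.24). Against the single DOX_NMN library of the second part the folds were -5.28 for Srxn1, -4.51 for Gsta1, -3.48 for Gclm, -2.64 for Txnrd1, -1.63 for Gclc and -1.66 for Mgst1. The pooled folds of Srxn1, Gsta1, Gclm, Txnrd1, Gclc and Mgst1 thus lay between those of the parts.

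Gstm2 and Me1 fell only narrowly. Gstm2 had 105, 81.3, 58.5 and 123 CPM in DOX_NMN against 115, 111, 158 and 156 CPM in DOX_Vehicle, a log2 fold of -0.56 (SE 0.18, adjusted p = 0.026). The groups overlapped, and the call was lost without DOX_NMN replicate 2 or 3 (adjusted p = 0.08 and 0.083) without DOX_Vehicle replicate 3 or 4 (0.085 and 0.079), within the first part (0.094) and when only DOX_NMN and DOX_Vehicle were fitted (0.095). Me1 had 112, 125, 132 and 130 CPM in DOX_NMN against 196, 205, 134 and 136 CPM in DOX_Vehicle, a log2 fold of -0.43 (SE 0.13, adjusted p = 0.016). Its call was lost without DOX_Vehicle replicate 1 or 2 (adjusted p = 0.053 and 0.052), when only DOX_NMN and DOX_Vehicle were fitted (0.082) and with limma on log2(FPKM + 0.1) or log2(FPKM + 1) (0.052 and 0.053). Me1 was at -0.71 in the first part and at -0.04 in the second, which has 1 DOX_NMN library.

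The genes that rose in DOX_NMN against DOX_Vehicle were Gstt1, Gstm6 and Gstk1. Gstt1 rose by a log2 fold of 1.38 (SE 0.30, adjusted p = 0.0024), Gstm6 by 1.09 (SE 0.31, adjusted p = 0.012) and Gstk1 by 0.53 (SE 0.15, adjusted p = 0.011). Gstm6 was at 1.11 and not called in the first part (adjusted p = 0.076). It was at 1.17 in the second part, which has 1 DOX_NMN library. For Gstk1 the levels were 61.9, 64.9, 57.0 and 77.2 CPM in DOX_NMN, of which 1 lay below the highest DOX_Vehicle library, and the call was lost when only these groups were fitted (adjusted p = 0.053). Mgst3 and Prdx1, at -0.33 and -0.23, were not called (adjusted p = 0.059 and 0.053). Mgst3 was called without DOX_NMN replicate 1 or 4 (adjusted p = 0.031 and 0.027) without DOX_Vehicle replicate 2 (0.014), with DESeq2 (0.045) and with limma (0.042). Prdx1 was called without DOX_Vehicle replicate 3 (adjusted p = 0.026), within the first part (0.021), with DESeq2 (0.025) and with RLE scaling (0.048). Gsta3 stayed near its DOX_Vehicle level, at 0.08 (SE 0.30, adjusted p = 0.85), and the interval of that estimate is wide.

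**Figure D5:**
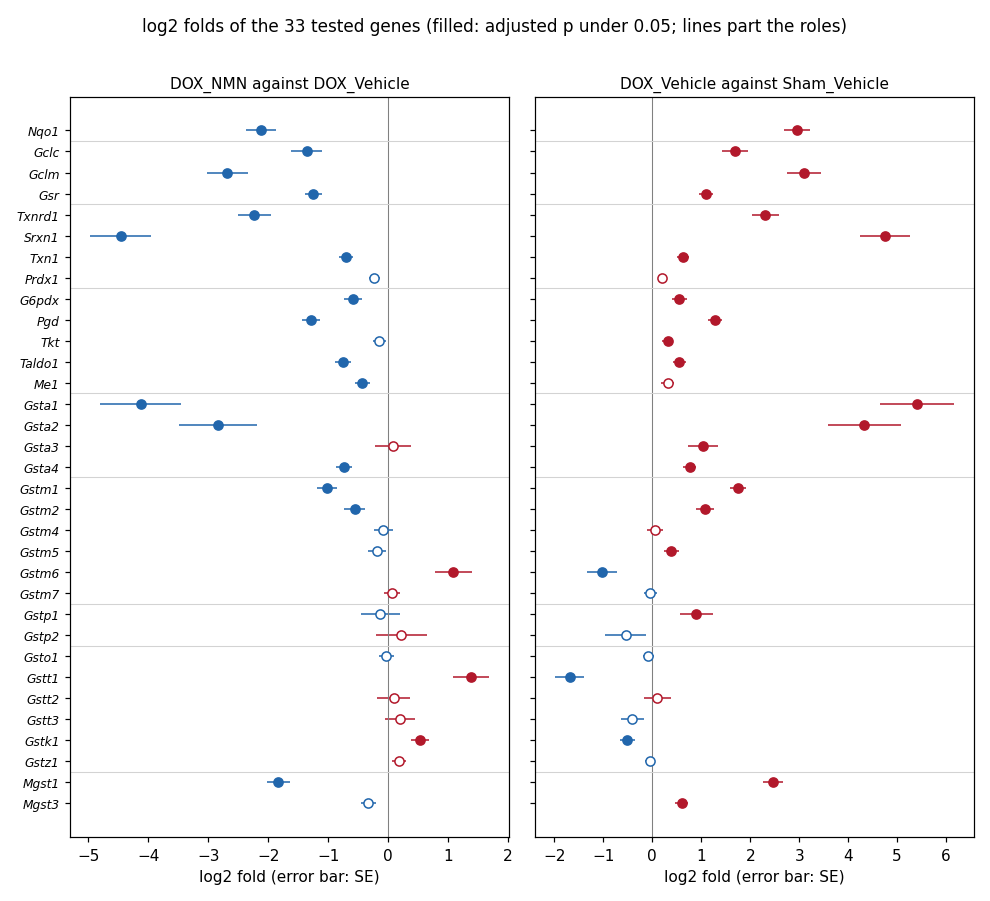
log2 folds with their SE for the 33 tested genes, DOX_NMN against DOX_Vehicle on the left and DOX_Vehicle against Sham_Vehicle on the right, with filled points for an adjusted p under 0.05 and grey lines between roles. Srxn1 lies at -4.46 on the left and 4.75 on the right, and both panels share the DOX_Vehicle libraries.

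NMN alone changed none of the 33 genes at the threshold. In Sham_NMN against Sham_Vehicle edgeR called 0% of all genes and 0 of the 33, and at an unadjusted p under 0.05 it found 342 of the 14716 genes and 1 of the 33, Gstp1. DESeq2 called 0 genes as well, among all genes and among the 33. Gstp1 was at a log2 fold of 0.74 (SE 0.33, adjusted p = 1), with the overlapping levels given above. Srxn1, Nqo1, Gclm and Mgst1 were at 0.08, 0.15, 0.36 and 0.13, with SE of 0.47, 0.24, 0.33 and 0.19.

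In the presence of NMN, doxorubicin left no gene past the threshold, although single libraries differed. In DOX_NMN against Sham_NMN edgeR called 0% of all genes and 0 of the 33, with 1223 genes and 5 of the 33 at an unadjusted p under 0.05. DESeq2 called 21 genes and 1 of the 33, Gstm1, at 0.70 (adjusted p = 0.05). The 5 were Nqo1 at a log2 fold of 0.69 (SE 0.24), Gstm1 at 0.71 (SE 0.17), Gstm2 at 0.73 (SE 0.18), Mgst1 at 0.50 (SE 0.19) and Mgst3 at 0.29 (SE 0.13), with adjusted p from 0.40 to 0.59. Only Gsta2 had every DOX_NMN library above every Sham_NMN library, beside 3.18% of all genes, and its Sham_NMN libraries held 0 to 2 counts.

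The DOX_NMN libraries were unlike each other over all genes, as given above, and in these genes too. Of the 21 genes that rose in DOX_Vehicle against Sham_Vehicle, 14 lay above all 8 sham libraries in DOX_NMN replicate 1, 7 in replicate 2, 0 in replicate 3 and 11 in replicate 4. Replicate 3 was the lowest of the 4 for 14 of the 21 genes. The matching shares over all genes were not computed, and the 21 were picked by their rise over Sham_Vehicle. Whether these genes differ in this from other genes was not tested. Without DOX_NMN replicate 3, Gstm1 was at 0.87 (adjusted p = 0.019) and Gstm2 at 0.90 (adjusted p = 0.034) against Sham_NMN, and both were called, while Nqo1 was at 0.83 and Mgst1 at 0.68 and were not (adjusted p = 0.21 and 0.094).

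The difference between the doxorubicin effect with NMN and that without it was tested as an interaction. It was below 0 for 13 of the 33 genes and above 0 for 3 at the threshold, beside 8.96% and 9.49% of all genes. Of all genes called in the interaction, 51.4% were above 0, and 60% were under upper-quartile scaling and 40.9% when log2(FPKM + 1) was tested with limma. Srxn1 had the most negative value, -4.54 on the log2 scale (SE 0.68, adjusted p = 7e-04), and Mgst1 had the smallest adjusted p, at -1.96 (SE 0.27, adjusted p = 0.00042). Nqo1 and Txnrd1 were both at -2.27 (adjusted p = 0.00083 and 0.0015), and Gclm was at -3.04 (adjusted p = 0.00091). Within the first part the interaction was -2.64 for Srxn1, -1.95 for Gclm, -1.35 for Txnrd1, -1.81 for Nqo1 and -2.06 for Mgst1, all called, while that of Gclc, -0.69, and of Gsta1, -2.61, were not (adjusted p = 0.083 and 0.076). Gstt1, Gstm6 and Gstk1 were above 0, at 1.57, 1.45 and 0.69. Within the first part Gstm6 was at 1.86 and not called (adjusted p = 0.058). The call of Gstm6 was lost without any 1 of DOX_Vehicle replicate 4, Sham_NMN replicates 1 and 2 and Sham_Vehicle replicates 1 and 2 (adjusted p = 0.054 to 0.06), and that of Gstk1 without any 1 of DOX_NMN replicates 2 and 4, Sham_NMN replicates 1, 2 and 3 and Sham_Vehicle replicate 3 (0.052 to 0.064).

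The genes that control NRF2 were taken as a list of 14, none of them among the 36, of which 13 were tested. In DOX_Vehicle against Sham_Vehicle 6 rose, 1 fell and 6 were not called, beside the 24.8% and 23.9% of all genes. Nfe2l2, which encodes NRF2, had 76.5, 71.6, 90.2 and 73.7 CPM in DOX_NMN, 113, 119, 137 and 145 CPM in DOX_Vehicle, 85.6, 74.4, 81.8 and 56.7 CPM in Sham_NMN, and 76.6, 75.9, 59.3 and 57.4 CPM in Sham_Vehicle. DOX_Vehicle was above all other libraries, and Nfe2l2 rose by a log2 fold of 0.94 (SE 0.14, adjusted p = 6.6e-05). Keap1 was at 0.07 (SE 0.11, adjusted p = 0.62). The small MAF partners Maff and Mafk rose by 2.67 and 1.69, and Sqstm1, whose product p62 binds KEAP1, rose by 2.78, with adjusted p of 4.4e-06, 8.2e-07 and 3.9e-06. Gsk3b, a kinase that promotes NRF2 degradation, fell by 0.25 on the log2 scale (adjusted p = 0.029).

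In DOX_NMN against DOX_Vehicle 6 of the 13 regulators fell and 7 were not called, beside 18.8% of all genes that fell. Nfe2l2 was at -0.72 (SE 0.14, adjusted p = 0.00098), Sqstm1 at -2.14, Maff at -1.88 and Mafk at -1.40, and Keap1 at -0.11 was not called (adjusted p = 0.43). None of the 13 was called in Sham_NMN against Sham_Vehicle or in DOX_NMN against Sham_NMN, where Nfe2l2 was at 0.15 and 0.06 and Keap1 at 0.04 and -0.08. In the interaction Nfe2l2 was at -0.87 (adjusted p = 0.0075) and Keap1 at -0.15 (adjusted p = 0.51).

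Other glutathione and NADPH genes were taken as a list of 28, none of them among the 36, of which 25 were tested. In DOX_Vehicle against Sham_Vehicle 9 rose, 8 fell and 8 were not called, beside 24.8% of all genes that rose and 23.9% that fell, so these shares were not far from those of all genes. Esd, which encodes S-formylglutathione hydrolase, Slc3a2, the heavy chain that partners xCT, and Gss, glutathione synthetase, rose by log2 folds of 1.55, 2.09 and 1.12, with adjusted p of 2e-06, 9.5e-06 and 0.00016. Glo1, the glyoxalase that clears methylglyoxal, Glrx, a glutaredoxin, and Chac2, which degrades glutathione, fell by log2 folds of -0.55, -1.14 and -1.61, with adjusted p of 0.00021, 0.00037 and 0.0016. In DOX_NMN against DOX_Vehicle 3 of the 25 rose, 6 fell and 16 were not called, beside 17.5% and 18.8% of all genes. Esd was there at -1.42, Slc3a2 at -1.58 and Gss at -1.08.

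Of 18 tested of 20 other reductases and conjugating enzymes, 4 rose, 6 fell and 8 were not called in DOX_Vehicle against Sham_Vehicle, again near the 24.8% and 23.9% of all genes. The epoxide hydrolases Ephx1 and Ephx2 and the stress-induced Osgin1 rose by log2 folds of 2.04, 1.10 and 2.18, with adjusted p of 9e-07, 9.2e-06 and 0.00014. Nqo2, a quinone reductase related to NQO1, Akr1c14, an aldo-keto reductase, and Ptgr1, a prostaglandin reductase, fell by log2 folds of -1.67, -2.63 and -1.29, with adjusted p of 1.5e-05, 0.00013 and 0.001. In DOX_NMN against DOX_Vehicle 4 rose, 5 fell and 9 were not called, beside 17.5% and 18.8%. The 2 quinone reductases thus moved in opposite directions after doxorubicin, Nqo1 at 2.95 and Nqo2 at -1.67.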

How the data were processed

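In all, 16 libraries of mouse heart RNA were sequenced with the NEBNext Ultra RNA kit, per the labels' protocols. The kit marks no strand, so a read from where 2 genes overlap on opposite strands cannot be assigned. Per the submitters' processing notes the tools were HISAT2 2.1.0 and HTSeq 0.6.0, with GRCm38. The sources used here do not give the annotation release or any read filters. The authors deposited raw counts for 30884 genes. The authors' deposited FPKM values equal those counts over library total and gene length, with a largest relative deviation of 9.7e-15.

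Tests on the counts used edgeR 4.0.16 under R 4.3.3, with its default expression filter (14716 genes), TMM scaling, and 1 quasi-likelihood fit over the 4 groups, with contrasts for the comparisons and Benjamini-Hochberg adjustment over all tested genes. CPM are on TMM-scaled totals. The common dispersion was 0.0377, a coefficient of variation of 19.4%. SE belongs to the log2 fold. DESeq2 1.42.0, limma 3.58.1 on log2(FPKM + 0.1) and log2(FPKM + 1), other scalings and filters, a replicate block, leaving out each library, and fits within each part of the libraries were alternatives. The last were added after seeing the data.

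The 36 genes, their roles, the other pathway lists, the marker lists and the genes that separate the libraries were chosen with earlier results of these data known. All 36 genes are named. From the other pathway lists, the called genes with the 3 smallest p in each direction of DOX_Vehicle against Sham_Vehicle are named, plus Nfe2l2 and Keap1. Ttr and Cyp2e1 are named as the tested markers of their list. Shared windows are 50-base runs of GENCODE M21 transcripts found in another gene. The fits were checked on simulated counts.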

Additional observations from a re-analysis of the deposited data

Results flagged for a closer look

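In 9 of the 132 sets of 4 libraries that were examined for the 33 genes, 1 library stood apart from the other 3 of its group. Chance alone gives about 1 in 20 if all 4 libraries are alike in kind. In DOX_NMN and in Sham_NMN, replicate 4 is the only library of the second part, and it is the library flagged for Gstm7, Prdx1 and Gsta2. All Sham_NMN values of Gsta2 were under 3 counts. Gclm was at 43.0 CPM in DOX_NMN replicate 1, against 22.7 to 26.0 CPM in the other 3. Tkt was at 27.2 CPM in the same library, against 20.9 to 21.8 CPM. Gstm7 was at 44.2 CPM in DOX_NMN replicate 4, against 33.6 to 34.7 CPM, and Gsta3 was at 14.2 CPM in DOX_Vehicle replicate 2, against 18.9 to 19.3 CPM. In Sham_NMN, Prdx1 was at 183 CPM in replicate 4 (others 192 to 194 CPM), Gsta2 at 0 in replicate 4 (others 0.129 to 0.134 CPM) and Gstm4 at 10.2 CPM in replicate 1 (others 8.75 to 8.89 CPM). In Sham_Vehicle, G6pdx was at 4.73 CPM in replicate 2 (others 5.75 to 5.94 CPM) and Gstk1 at 73.5 CPM in replicate 3 (others 60.7 to 62.0 CPM).

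The interaction in edgeR was called for 16 of the 33 genes, beside 18.4% of all genes. In those 16 the doxorubicin effect with NMN differed from that without NMN. On the log2 scale the difference was -4.54 for Srxn1, -4.22 for Gsta1, -3.04 for Gclm, -2.27 for Nqo1 and -2.27 for Txnrd1. It was -1.96 for Mgst1, -1.46 for Gclc, -1.31 for Pgd, -1.28 for Gsr and -1.04 for Gstm1. It was -0.67 for Gsta4, -0.62 for Taldo1 and -0.55 for Txn1, and above 0 for Gstt1 (1.57), Gstm6 (1.45) and Gstk1 (0.69).

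Calls of 6 of these genes lay near enough to the threshold to be lost when 1 library was left out. That of Gsta1 was lost without Sham_NMN replicate 1 or 3 (adjusted p = 0.052 and 0.076), and that of Gsta4 without DOX_NMN replicate 2 (0.051) or Sham_NMN replicate 3 (0.05). Those of Txn1 and Gstk1 were lost without any 1 of several libraries, with adjusted p from 0.057 to 0.079 for Txn1 without DOX_NMN 1, 2 or 3, DOX_Vehicle 3 or 4, Sham_NMN 1, 2 or 3 or Sham_Vehicle 1 or 2, and from 0.052 to 0.064 for Gstk1 without DOX_NMN 2 or 4, Sham_NMN 1, 2 or 3 or Sham_Vehicle 3. That of Taldo1 was lost without DOX_NMN 2, DOX_Vehicle 3 or 4, Sham_NMN 2 or 4 or Sham_Vehicle 1 or 2 (0.05 to 0.065), and that of Gstm6 without DOX_Vehicle 4, Sham_NMN 1 or 2 or Sham_Vehicle 1 or 2 (0.054 to 0.06).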

How the results depend on the processing

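Among the 33 genes the count of calls stayed within 1.5 times in DOX_Vehicle against Sham_Vehicle, in DOX_NMN against DOX_Vehicle and in the interaction under every alternative run, from 21 to 24, 19 to 21 and 12 to 16 when 1 library was left out, and it was 0 to 0 in Sham_NMN against Sham_Vehicle. In DOX_NMN against Sham_NMN it was 0, but 1 with DESeq2, 2 without DOX_NMN replicate 3 and 10 in the second part of the libraries, so with 1 library left out it ran from 0 to 2. Over all genes that comparison gave 4 calls without a filter, 21 with DESeq2, 1519 in the second part, and 0 to 20 with 1 library left out. In the second part DOX_NMN and Sham_NMN have 1 library each, assumed to vary like the other groups, so its 10 and 1519 compare those libraries. DOX_NMN against DOX_Vehicle gave 5336 calls, 3309 when only those groups were fitted and 3224 in the first part. DOX_Vehicle against Sham_Vehicle gave 7170 calls and 4121 in the first part, Sham_NMN against Sham_Vehicle gave 2 in the first part and 28 in the second, and the interaction gave 2714, with 1364 in the first part and 4521 in the second. With 1 library left out the interaction gave 1720 (without DOX_NMN replicate 3) to 4178 (without DOX_Vehicle replicate 2), and 1722, 1783 and 1757 without DOX_NMN replicate 2, DOX_Vehicle replicate 4 and Sham_NMN replicate 3. Gstt2 in DOX_Vehicle against Sham_Vehicle turned from 0.10, not called, to -0.47 in the second part. The causes of these differences were not tested. Fits within a part hold fewer libraries than the main fit, and their counts lay on both sides of it.

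Same-numbered libraries of different groups deviated together by correlations of -0.12 to 0.40, and differently numbered ones by -0.36 to 0.21. Replicates 1 and 2 of every group lie in the first part and replicate 4 in the second. These values therefore cannot decide whether the numbers pair the samples. With a replicate block 23 of the 33 genes were called in DOX_Vehicle against Sham_Vehicle, against 24 without it, where Gstm5 lost its call, and the block changed no other call of the 33. Upper-quartile scaling shifted the median of all genes by -0.08 in DOX_Vehicle against Sham_Vehicle and by 0.07 in DOX_NMN against DOX_Vehicle. At this depth a change of Gstm3, with 0 or 1 count per library, was not detectable.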
